A study of Mus musculus with 34 samples.

Results

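The genes that make, break down and control polyamines were described across 34 Affymetrix arrays of mouse muscle and liver. The 10 genes were Odc1, Amd1, Amd2, Srm and Sms for synthesis, Smox and Sat1 for breakdown, and Oaz1, Oaz2 and Azin1, which control ornithine decarboxylase. Every probe set that the supplied platform annotation pairs with these symbols was taken, which gave 15 of 22690 probe sets and covered 8 of the 10 genes. That annotation pairs no probe set with Amd1 or Amd2, and both are not analysed here. All 3 Sms probe sets also carry the name of the pseudogene Sms-ps, and the dimmer of 2 Oaz1 probe sets also carries Oaz1-ps, so in these 4 probe sets the gene and its pseudogene cannot be told apart. The genes were chosen with differences between these mutant and wild-type arrays already known, so those differences are given as a description, with no p-value for any gene.

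Knockout mice lacking muscle glycogen synthase (MGSKO in the labels) were set against wild-type mice at 3 months of age in anterior tibialis (4 knockout and 4 wild-type arrays), medial gastrocnemius (3 and 5) and liver (4 and 4). GSL30 mice, labelled as overexpressing muscle glycogen synthase, were set against wild-type mice at 8 months in medial gastrocnemius (5 and 5). Muscle glycogen synthase is encoded by Gys1, whereas liver makes its glycogen mainly with another enzyme, encoded by Gys2. GSL30 is known as a single transgenic line that carries a hyperactive form of the enzyme under the muscle creatine kinase promoter, although the labels name no promoter. The strain C57BL6/129SV is labelled for the tibialis arrays alone. The labels leave it unsaid if arrays stand for separate animals, so standard errors and p-values measure the spread between these arrays, which may be technical.

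Polyamines (putrescine, spermidine and spermine) are small positively charged molecules that bind nucleic acids and are needed for growth and protein synthesis. Ornithine decarboxylase, the product of Odc1, makes putrescine in the rate-limiting step, and the products of Srm and Sms then build spermidine and spermine with decarboxylated S-adenosylmethionine supplied by Amd1. The products of Smox and Sat1 lead back, by oxidising spermine and by acetylating spermine and spermidine. Antizymes, from Oaz1 and Oaz2, bind ornithine decarboxylase and send it to the proteasome, and the antizyme inhibitor from Azin1 takes antizyme away from it. In skeletal muscle, Odc1 is known as a gene that responds to androgen and to growth.

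The start regions of Odc1, Smox and Oaz2 are shown because these are the genes with a probe set that passed the threshold in a mutant group. They are RefSeq windows of build GRCm38.p6, which the supplied table sets from 250 bases before to 50 bases after a start of the gene, printed 5′ to 3′ on the gene's own strand. For Odc1 and Smox that start lies apart from the gene start in the RefSeq gene table. Capitals mark the GC box, the letters GGGCGG or, on the other strand, CCGCCC.
Odc1, chr12:17544623-17544922, plus strand: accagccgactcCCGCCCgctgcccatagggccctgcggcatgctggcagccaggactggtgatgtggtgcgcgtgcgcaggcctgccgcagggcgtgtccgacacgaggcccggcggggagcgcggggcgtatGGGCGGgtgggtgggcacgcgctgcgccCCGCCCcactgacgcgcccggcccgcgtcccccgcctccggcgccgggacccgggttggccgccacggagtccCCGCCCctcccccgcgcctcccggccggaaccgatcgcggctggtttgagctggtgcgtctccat
Smox, chr2:131491612-131491911, plus strand: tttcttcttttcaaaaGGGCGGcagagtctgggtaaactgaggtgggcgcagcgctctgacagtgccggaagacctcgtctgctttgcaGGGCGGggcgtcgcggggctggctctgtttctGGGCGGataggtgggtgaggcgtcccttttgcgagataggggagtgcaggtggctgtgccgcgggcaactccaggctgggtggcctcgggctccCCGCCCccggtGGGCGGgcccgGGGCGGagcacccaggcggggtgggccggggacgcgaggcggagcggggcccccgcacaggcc
Oaz2, chr9:65676298-65676597, plus strand: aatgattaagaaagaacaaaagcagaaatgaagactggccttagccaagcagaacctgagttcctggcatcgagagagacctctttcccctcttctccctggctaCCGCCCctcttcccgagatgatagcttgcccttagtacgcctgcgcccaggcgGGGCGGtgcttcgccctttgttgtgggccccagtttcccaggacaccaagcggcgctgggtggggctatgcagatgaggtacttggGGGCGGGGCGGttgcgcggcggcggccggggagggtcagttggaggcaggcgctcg

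The Odc1 window held 4 GC boxes and was 78% G or C, the Smox window held 6 and was 71%, and the Oaz2 window held 4, of which a pair overlap, and was 61.7%. The median over all 32851 windows was 52.7% G or C. A window was supplied for 8 of the 10 genes (9 windows, with 2 for Sms), and 6 of the 9 held a GC box, against 35.66% of all windows. Other motifs were searched on both strands. The TATA box TATAAA was found in the Oaz1 window alone and stands in 13.62% of all windows. The E-box CACGTG, a site that Myc and Max can bind, was found in 1 of the 2 Sms windows and stands in 7.15% of all windows. The cAMP response element TGACGTCA was in none of the 9 and stands in 1.79% of all windows. These matches describe letters and show no binding.

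Intensities are in the arbitrary linear units of the deposited table, in which every array has a trimmed mean of 999.21 to 999.9. Array medians ran from 296.35 to 440.3, and correlations within a group from 0.902 to 0.98. A probe set's intensity was compared across arrays, not with that of another probe set. Differences are on the log2(value + 50) scale, which understates the change of dim probe sets, with the standard error (SE) from limma. A probe set passed the threshold where its Benjamini-Hochberg adjusted p over the 13576 probe sets tested was under 0.05. The targeted gene followed its labels in muscle. The brighter Gys1 probe set read 34.2 to 72.5 in knockout and 8184 to 9958 in wild-type tibialis, 58.1 to 165 and 3955 to 6378 in gastrocnemius at 3 months, and 7896 to 10404 in GSL30 and 5840.0 to 7185 in wild-type gastrocnemius at 8 months. In liver it read 18.6 to 60 in knockout and 42.2 to 72.2 in wild type. The labels do not say whether this probe set lies in the disrupted part of the gene.

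Some gastrocnemius arrays carried liver transcripts. The summed level of 11 hepatocyte markers, as a percent of wild-type liver, was 9.1 to 29.0 in knockout and 9.6 to 129 in wild-type gastrocnemius at 3 months, with wild-type replicate 2 at the top. It was 1.45 to 2.52 in GSL30 and 2.6 to 6.17 in wild-type gastrocnemius at 8 months, ranges that do not overlap, and at most 0.691 in tibialis. The summed intensity of the 7 markers of slow muscle fibres also differed. Their summed intensity was 37381 to 46707 in knockout and 12556 to 20324 in wild-type tibialis, and 75523 to 100793 in knockout and 33096 to 55663 in wild-type gastrocnemius at 3 months. It was 21686 to 40831 in GSL30 and 49283 to 61913 in wild-type gastrocnemius at 8 months. By gene, only 1 of 7 slow-fibre markers passed the threshold in each knockout muscle. By probe sets these were 3 of 12 in tibialis and 1 of 12 in gastrocnemius, all higher, against 0.663% and 0.0442% of all. The 7 endothelial markers summed to 15635 to 19034 in knockout and 11430 to 13485 in wild-type tibialis, to 14004 to 15655 and 9073 to 11432 in gastrocnemius at 3 months, and to 8675 to 10470 in GSL30 and 13713 to 16458 in wild type at 8 months. By gene, 0 of 7 endothelial markers passed in knockout tibialis and 0 of 7 in knockout gastrocnemius. None of the hepatocyte, slow-fibre or endothelial markers was at 0 in any group. The part of the slow-fibre and endothelial markers in the polyamine results was not tested. For liver transcripts, some gastrocnemius values are also given with a hepatocyte marker score as a covariate and without the arrays richest in them. Those arrays were at 3 months knockout 1 and wild type 1, 2 and 4, and at 8 months wild type 2 and 5.

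Odc1 was lower in both knockout muscles. All 3 of its probe sets passed the threshold in knockout tibialis and in knockout gastrocnemius, and in each of these 6 cases the knockout and wild-type arrays did not overlap. Over all probe sets, 1.4% passed in tibialis (0.663% higher and 0.737% lower) and 0.147% in gastrocnemius (0.0442% higher and 0.103% lower), and since Odc1 was chosen from these contrasts nothing is read from its place among them. No Odc1 probe set passed in GSL30 gastrocnemius or in knockout liver. In such bulk samples, fewer cells of a type and less RNA per cell cannot be told apart.

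In knockout tibialis the brightest Odc1 probe set (1438761_a_at) read 1653, 1797, 2489 and 2157, against 4914, 4826, 4120.4 and 2979 in wild-type tibialis. Every knockout array lay below every wild-type array, with wild-type replicate 4 the nearest. The mean intensity was 2024 ± 375 in knockout and 4210 ± 894 in wild type (SD, n = 4 each), and the difference was −1.03 (SE 0.19). The second probe set (1437711_x_at, whose suffix marks probes that can match other transcripts) read 1548, 1433, 1641 and 1458 in knockout and 3717, 3071, 3635 and 3176 in wild-type tibialis (difference −1.13, SE 0.11). The third (1427364_a_at) read 819, 604, 919 and 1042 in knockout and 2065, 1823, 1304 and 1583 in wild-type tibialis (difference −0.97, SE 0.19). The 3 probe sets put Odc1 in knockout tibialis at 48.1%, 44.7% and 49.9% of the wild-type mean intensity. With single arrays left out, the second probe set passed in 8 of 8 fits, while the brightest passed only without wild-type replicate 4 and the third only without knockout replicate 4. The tibialis difference of the brightest stayed between −1.18 and −0.94 in those fits.

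In knockout gastrocnemius at 3 months the brightest Odc1 probe set read 2567, 3477 and 2852, against 12312, 13141, 12120.4, 10637 and 13522 in wild-type gastrocnemius. The highest knockout array was far below the lowest wild-type array. The means were 2965 ± 465 in knockout (SD, n = 3) and 12346 ± 1117 in wild type (SD, n = 5), or 24.02% of wild type, and the difference was −2.05 (SE 0.15). The second probe set read 1435, 1799 and 1571 in knockout and 4459 to 5827 in wild type (difference −1.63, SE 0.14). The third read 746, 881 and 770.3 in knockout and 2109 to 2433 in wild type (difference −1.45, SE 0.12). The calls of all 3 were kept in each of 8 fits with 1 array left out. Without the arrays richest in liver transcripts, 2 knockout and 2 wild-type arrays were left and the brightest alone passed, while the differences of the other two stayed at −1.72 and −1.41. With the hepatocyte marker score as a covariate all 3 passed, and the brightest was at −2.11.

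In gastrocnemius at 8 months the brightest Odc1 probe set read 9484, 10717, 12515, 11112 and 11652 in GSL30, against 11166, 7813, 8479, 14358 and 11796 in wild type. The wild-type arrays spread wider than the GSL30 arrays and enclosed them. The difference was 0.08, with a 95% interval of −0.28 to 0.44. The other Odc1 probe sets gave −0.11 (SE 0.20) and 0.20 (SE 0.12). In liver the brightest read 1654, 2529, 1870 and 2099 in knockout and 2459, 1748, 2307 and 2290 in wild type, and the groups overlapped. The liver difference was −0.11, with a 95% interval of −0.46 to 0.24, and the other probe sets gave −0.14 (SE 0.20) and −0.42 (SE 0.44). The last of these rests on knockout replicate 1, at 191 where the other knockout livers read 1041 to 1089.

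**Figure D1:**
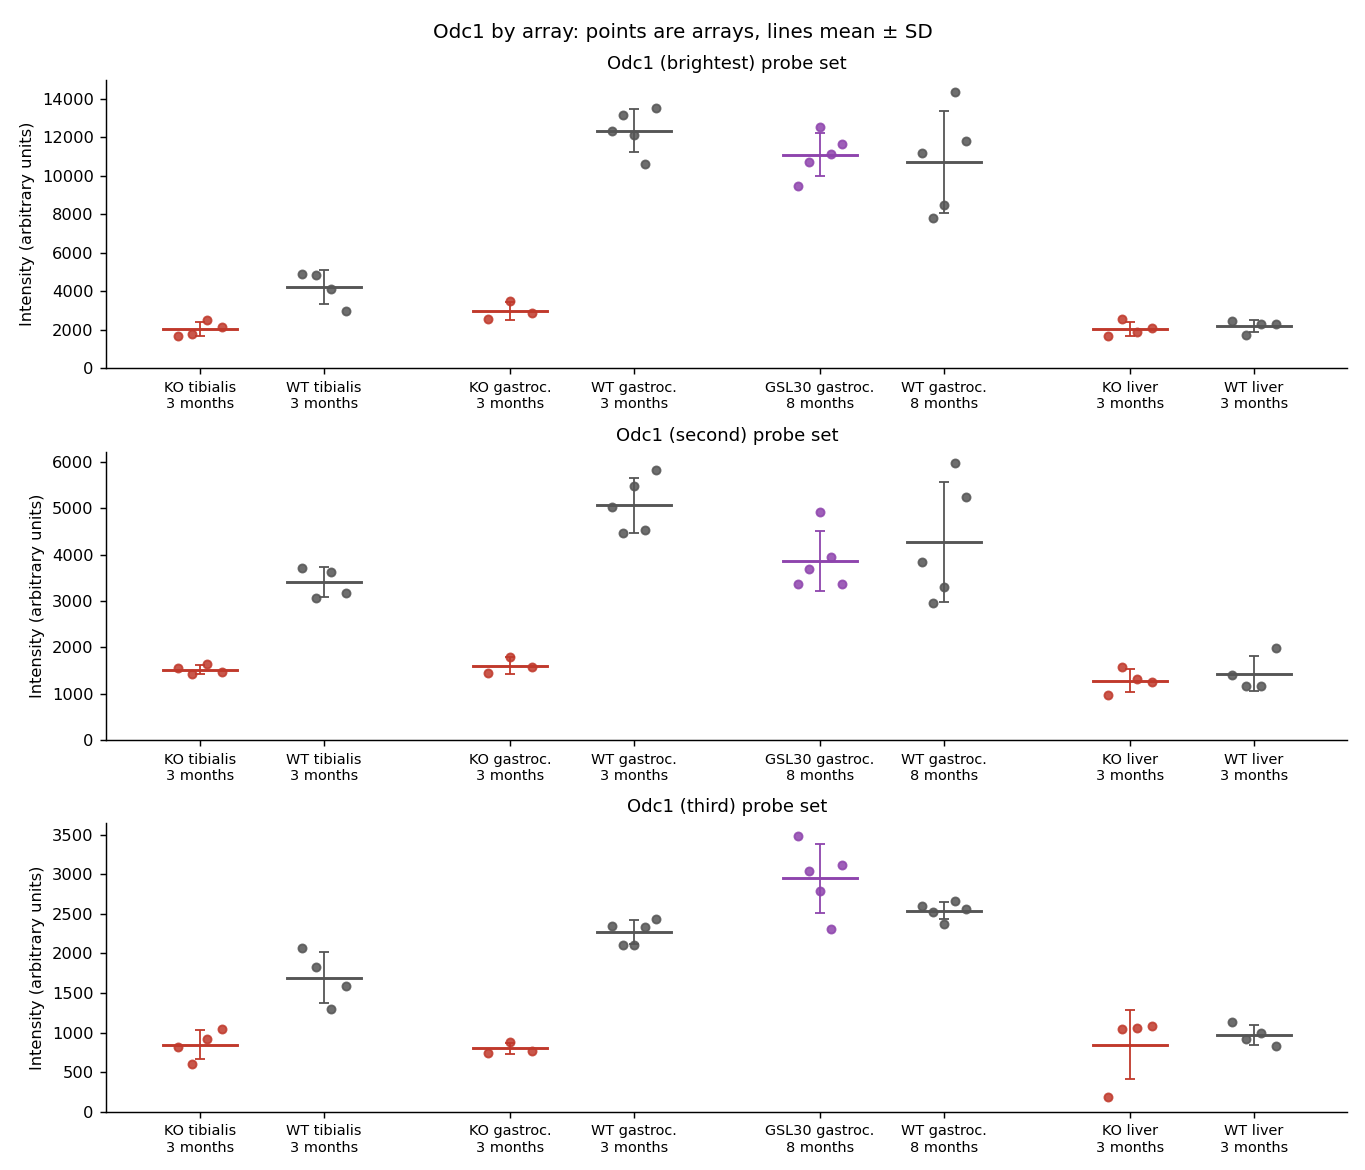
Intensity (arbitrary units, linear axes from 0) of the 3 Odc1 probe sets in each array, by group. Points are arrays and lines are mean ± SD. Knockout tibialis and knockout gastrocnemius lie below their wild-type groups in all 3 panels, whereas GSL30 gastrocnemius and knockout liver overlap theirs.

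Ordered by the brightest probe set, Odc1 was highest in wild-type gastrocnemius at 3 months (12346 ± 1117), GSL30 gastrocnemius (11096 ± 1125) and wild-type gastrocnemius at 8 months (10722 ± 2649), whose arrays overlapped. Wild-type tibialis (4210 ± 894) came next and overlapped knockout gastrocnemius (2965 ± 465). Wild-type liver (2201 ± 312), knockout liver (2038 ± 375) and knockout tibialis (2024 ± 375) overlapped one another at the low end. Knockout gastrocnemius lay nearer to liver than to wild-type gastrocnemius by this probe set. The order is a description of array intensities set across separate array series.

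The knockout difference of Odc1 was larger in gastrocnemius than in tibialis by the values, but this did not pass the threshold. The gastrocnemius difference minus the tibialis difference was −1.02 (SE 0.24) for the brightest probe set, −0.50 (SE 0.17) for the second and −0.48 (SE 0.23) for the third. In that contrast 2 of 13576 probe sets (0.0147%) passed and 0 of 15 polyamine probe sets did, while 3 of the 15 and 1364 of all had an unadjusted limma p under 0.05. The GSL30 difference minus the knockout difference in gastrocnemius was 2.12 (SE 0.23), 1.52 (SE 0.26) and 1.65 (SE 0.16) for the 3 Odc1 probe sets, and all 3 passed, against 2.3% of all probe sets (0.648% higher and 1.65% lower). Without the liver-rich arrays the second, at 1.57, no longer passed. The liver difference minus the mean of both muscle differences was 1.42 (SE 0.21) for the brightest and 1.24 (SE 0.19) for the second, which both passed, and 0.79 (SE 0.40) for the third, which did not. In the liver contrast 0.685% of all probe sets passed (0.302% higher and 0.383% lower). GSL30 mice also differed from the knockout series in age.

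Of the genes that follow Odc1 in synthesis, none passed in a knockout muscle. Srm, spermidine synthase (1421260_a_at), read 847 to 1006 in knockout and 644 to 867 in wild-type tibialis (difference 0.24, SE 0.12). In gastrocnemius at 3 months Srm read 1388, 1275 and 1337 in knockout and 1039 to 1174 in wild type (difference 0.28, SE 0.11). These gastrocnemius groups did not overlap, while the tibialis groups did, and neither difference passed. Sms, spermine synthase, read 3301 to 4218 in knockout and 4619 to 5092 in wild-type tibialis by its brightest probe set (difference −0.37, SE 0.11). Its second probe set read 2147, 2158, 1409 and 1391 in knockout and 2985, 2979, 2266 and 2939.9 in wild-type tibialis (difference −0.66, SE 0.18). Both Sms pairs were separated in tibialis without passing, and the third probe set overlapped (difference −0.29, SE 0.14). In gastrocnemius the 3 Sms probe sets pointed different ways, at 0.09 (SE 0.14), −0.37 (SE 0.14) and −0.21 (SE 0.15), and the groups were separated for the second alone.

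The genes of breakdown did not pass in knockout muscle. Smox, spermine oxidase (1424268_at), read 4727, 5412, 5527 and 3509.5 in knockout tibialis, against 6322, 5949.6, 4893 and 4916 in wild-type tibialis (difference −0.21, 95% interval −0.59 to 0.16). Smox in gastrocnemius was 4419.6, 3476 and 5202 in knockout and 2651 to 5337 in wild type (difference 0.11, 95% interval −0.42 to 0.63). Sat1, the acetyltransferase (1420502_at), read 866 to 1159 in knockout and 549 to 935 in wild-type tibialis (difference 0.35, 95% interval −0.04 to 0.74). In gastrocnemius it read 1291, 1526 and 1219.9 in knockout and 1246 to 1533 in wild type (difference −0.02, 95% interval −0.31 to 0.28). The groups overlapped in all 4 cases.

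The antizyme genes and Azin1 did not pass in knockout muscle either. Oaz1 read 17511 to 19849 in knockout and 21548 to 24176 in wild-type tibialis by its brightest probe set (difference −0.30, SE 0.10), groups that were separated. In gastrocnemius it read 15745 to 19044 in knockout and 17111 to 21607 in wild type (difference −0.15, SE 0.13). The Oaz1 probe set shared with Oaz1-ps gave −0.26 (SE 0.13) in tibialis and −0.36 (SE 0.26) in gastrocnemius, where wild-type replicate 2 read 32847 and the other wild-type arrays 13772 to 20436. Oaz2 read 5561 to 5732 in knockout and 6083 to 6407 in wild-type tibialis by its brightest probe set (difference −0.14, SE 0.09) and overlapped in gastrocnemius (difference 0.04, SE 0.14). Its second probe set gave 0.13 (SE 0.25) and −0.26 (SE 0.23). The 2 Azin1 probe sets gave 0.28 (SE 0.16) and 0.26 (SE 0.29) in tibialis and −0.15 (SE 0.14) and −0.28 (SE 0.21) in gastrocnemius.

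Counted together, 3 of 15 polyamine probe sets passed in knockout tibialis and 3 of 15 in knockout gastrocnemius, all 6 of them Odc1 and lower. The groups did not overlap for 7 of 15 in tibialis and 5 of 15 in gastrocnemius, against 10.1% and 9.98% of all probe sets. The median difference of the 15 was −0.26 in tibialis, where that of all probe sets tested was 0.04, and −0.21 in gastrocnemius, where it was 0.05. These counts and medians include the 3 Odc1 probe sets, chosen from these contrasts, and several probe sets of the same gene. Without Odc1 the differences ran from −0.66 to 0.35 in tibialis and from −0.37 to 0.28 in gastrocnemius. With no filter on dim probe sets, 1 of 15 passed in tibialis (the second Odc1 probe set) and 3 of 15 in gastrocnemius.

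**Figure D2:**
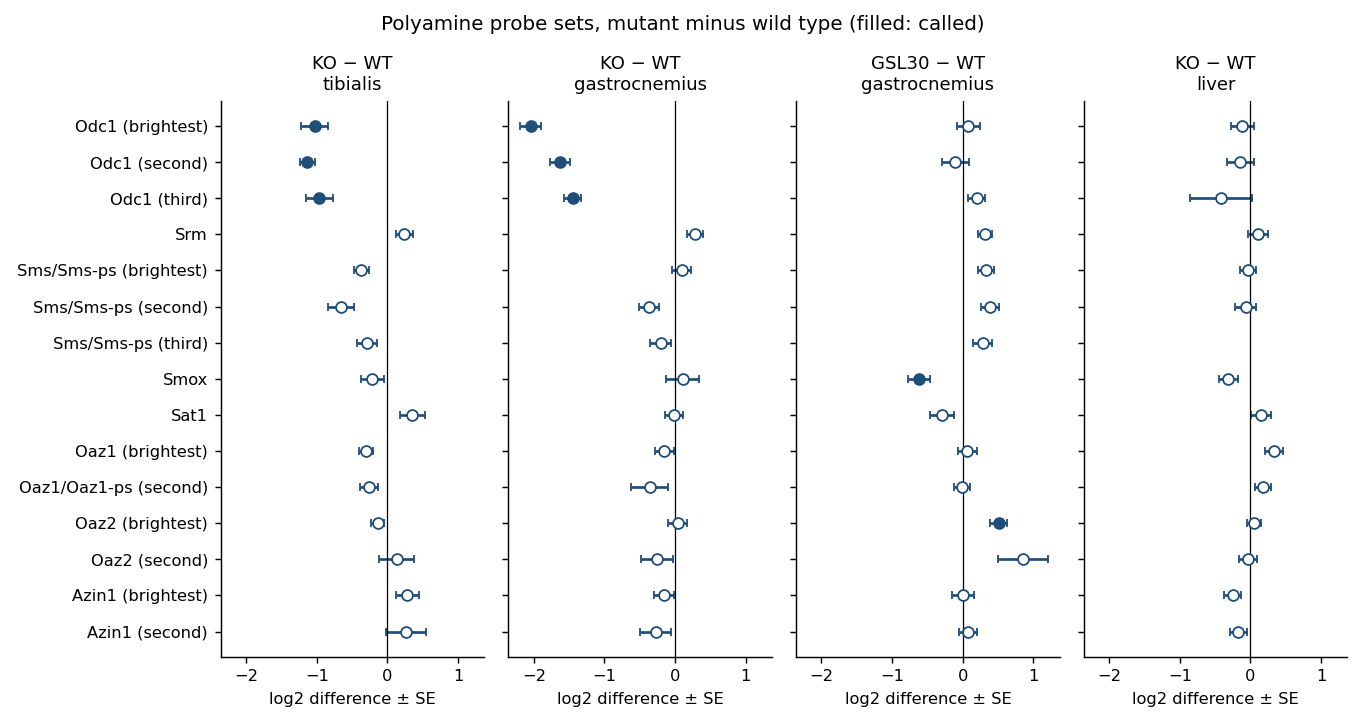
Difference on the log2(value + 50) scale (mutant minus wild type, with the limma SE as bars) of the 15 polyamine probe sets in the 4 mutant comparisons. Filled points passed the threshold, and they are the 3 Odc1 probe sets in both knockout muscles and Smox and Oaz2 (brightest) in GSL30. The third Sms probe set was too dim to be tested in liver and has no point there.

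In GSL30 gastrocnemius Smox was lower and Oaz2 higher than in wild type by the threshold, so 2 of 15 polyamine probe sets passed, against 4.31% of all probe sets (2.11% higher and 2.2% lower). Smox read 2530.1, 3481, 2489, 2739 and 2924 in GSL30, against 3269.9, 5713, 4228, 5023 and 3955 in wild type. Only GSL30 replicate 2 reached the wild-type range. The means were 2833 ± 402 in GSL30 and 4438 ± 950 in wild type (SD, n = 5 each; difference −0.62, SE 0.16). Oaz2 by its brightest probe set (1426763_at) read 7475, 6869, 6351, 7078 and 6910.1 in GSL30, against 4978, 4185, 5967, 5248 and 4171 in wild type. Every GSL30 array lay above every wild-type array, and the means were 6937 ± 406 in GSL30 and 4910.0 ± 760 in wild type (SD, n = 5 each; difference 0.51, SE 0.12). The second Oaz2 probe set read 7222, 6118, 5143, 6287 and 7053 in GSL30, against 4725, 4659, 4934, 4335 and 1072 in wild type (difference 0.85, SE 0.35). It was also separated but did not pass, and wild-type replicate 5 lay far below the other wild-type arrays.

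Both GSL30 calls were near the threshold. With single arrays left out, Smox passed only without wild-type replicate 1 and Oaz2 only without wild-type replicate 3, of 10 fits each, while the differences stayed between −0.73 and −0.53 for Smox and between 0.45 and 0.58 for Oaz2. Without wild-type replicates 2 and 5, the richest in liver transcripts, the differences were −0.54 for Smox and 0.36 for Oaz2 and neither passed. With the hepatocyte marker score as a covariate they were −0.34 and 0.26, neither passed, and 0 of all 13576 probe sets did. The score did not overlap between the groups, at 7.92 to 8.70 in GSL30 and 8.92 to 10.8 in wild type. A fit with this covariate therefore cannot tell liver transcripts from genotype, and nothing is read from the calls lost in it. That score was 8.15 ± 0.32 in GSL30 and 9.48 ± 0.78 in wild type (mean log2 of 11 markers ± SD, n = 5 each; exact two-sided permutation test, p = 0.00794). All 7 slow-fibre markers and 4 of 7 endothelial markers passed as lower in the same arrays.

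Srm and Sms were higher in GSL30 by their values and did not pass. Srm read 1438, 1485, 1345, 1494 and 1651 in GSL30, against 1233, 1189.7, 1238, 1173 and 1069.8 in wild type (difference 0.32, SE 0.10). The Srm groups did not overlap. The 3 Sms probe sets overlapped between groups and gave 0.33 (SE 0.12), 0.38 (SE 0.12) and 0.28 (SE 0.13). The brightest Sms probe set averaged 4653 ± 616 in GSL30 and 3677 ± 201 in wild type (SD, n = 5 each). Sat1 read 1191, 1861, 1201, 1436 and 1129.9 in GSL30, against 1387, 1661, 1516, 1589.7 and 2246 in wild type (difference −0.30, SE 0.17). Oaz1 and Azin1 were close between groups, at 0.06 (SE 0.14) and −0.01 (SE 0.11) for Oaz1 and 0.00 (SE 0.16) and 0.08 (SE 0.12) for Azin1. The groups did not overlap for 3 of 15 probe sets, against 7.38% of all, and the median difference was 0.08, where that of all probe sets tested was 0.03. Fitted over all 34 arrays, 4 of 15 passed.

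Against the knockout difference in gastrocnemius, the GSL30 difference of the second Sms probe set was higher by 0.76 (SE 0.18) and passed, as did all 3 Odc1 probe sets, so 4 of 15 passed in that contrast. The Sms call was kept in 11 of 18 fits with 1 array left out and was lost without any of the 3 knockout arrays, wild-type replicates 1 or 5 at 8 months, or GSL30 replicates 2 or 5 (0.68 to 0.82 over the 18 fits). For the brightest Oaz2 probe set the contrast was 0.47 (SE 0.18) and for Smox −0.73 (SE 0.28), and neither passed. A difference between the GSL30 and knockout responses of Smox and Oaz2 was therefore not shown.

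**Figure D3:**
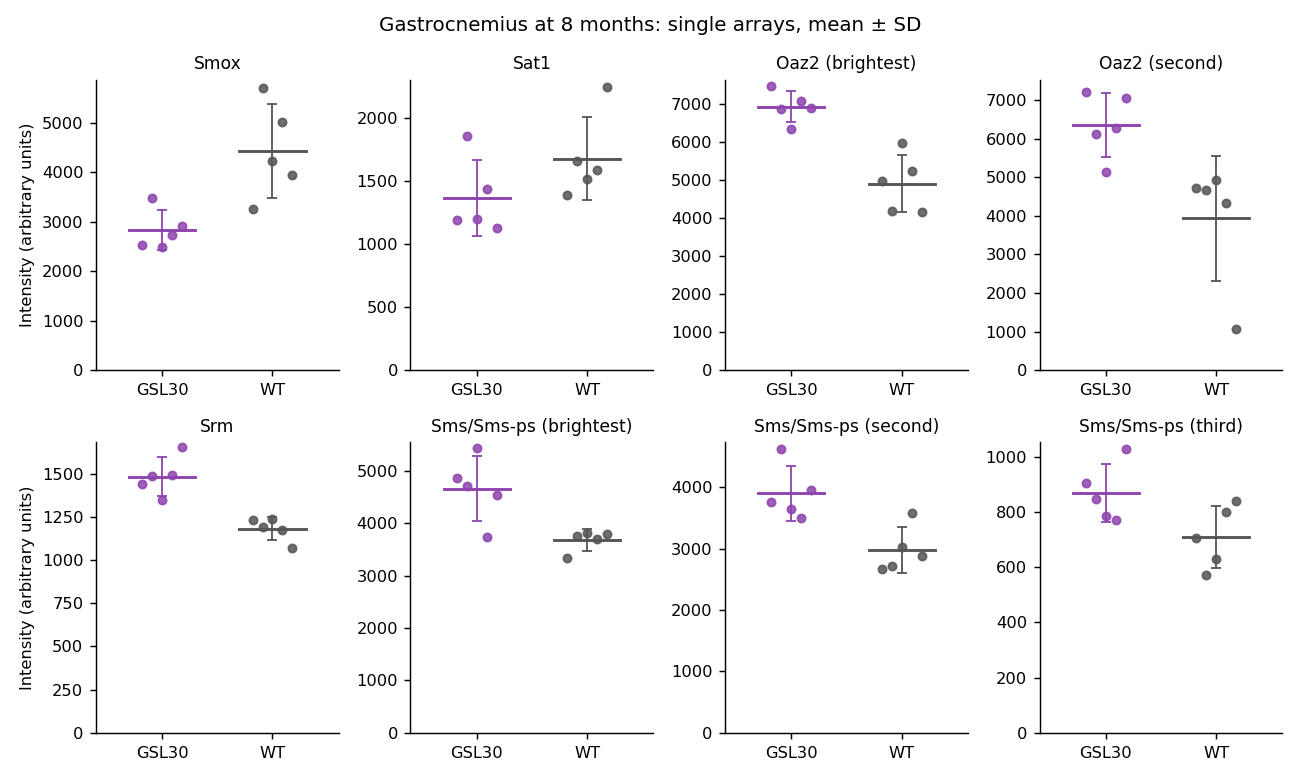
Intensity (arbitrary units, linear axes from 0) of Smox, Sat1, the 2 Oaz2 probe sets, Srm and the 3 Sms probe sets in gastrocnemius at 8 months, GSL30 left and wild type right. Points are arrays and lines are mean ± SD (n = 5 each). Both Oaz2 probe sets and Srm are separated between the groups, and wild-type replicate 5 of the second Oaz2 probe set is at 1072.

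In liver, 0 of 14 polyamine probe sets tested passed in limma, against 0.00737% of all probe sets (1 of 13576), and 2 of the 14 had an unadjusted p under 0.05, against 8.33% of all. Smox read 297 to 398 in knockout and 349 to 487 in wild type (difference −0.31, SE 0.13). The brightest Oaz1 probe set read 18304 to 24545 in knockout and 15069.6 to 18371 in wild type (difference 0.33, SE 0.13). Both overlapped between the groups. The groups were separated for 1 of 15, the brightest Azin1 probe set, at 1794 to 2281 in knockout and 2348 to 2742 in wild type (difference −0.25, SE 0.12), against 5.17% of all. Srm (0.11, SE 0.14), Sat1 (0.14, SE 0.14) and the brightest Oaz2 probe set (0.05, SE 0.10) overlapped. The third Sms probe set, at 131 to 229.5 in knockout and 130.1 to 191 in wild type, was under the filter on dim probe sets. The median difference was −0.05, where that of all probe sets tested was 0.02.

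The wild-type arrays gave the pathway's tissue pattern. These arrays also serve as controls above, in the contrasts that were known when the genes were chosen. The adjusted p-values of the wild-type contrasts are therefore not independent of that choice, for Odc1 included, and are given as a description. Each tissue and age has its own array series in the sample titles, so tissue or age and series cannot be told apart. Between wild-type liver and wild-type tibialis, 13 of 15 polyamine probe sets passed (3 higher and 10 lower in liver), in a contrast in which 69.4% of all probe sets passed (28.2% higher and 41.1% lower). The groups did not overlap for 13 of 15, against 64% of all. Smox was 418 ± 56.8 in liver and 5520.2 ± 727 in tibialis (SD, n = 4 each; difference −3.57, SE 0.14; limma adjusted p = 3.9e-09). The brightest Sms probe set was 909 ± 68.3 in liver and 4760.4 ± 222 in tibialis (difference −2.33, SE 0.11; limma adjusted p = 1.53e-08). The other Sms probe sets gave −2.69 and −2.11. Oaz2 was 1564 ± 64.1 in liver and 6219 ± 148 in tibialis (difference −1.96, SE 0.10; limma adjusted p = 3.35e-08).

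Odc1 was also lower in wild-type liver, by 3 probe sets at −0.90 (SE 0.18), −1.25 (SE 0.17) and −0.76 (SE 0.16), with limma adjusted p of 0.00112, 9.13e-05 and 0.00159. Srm, Sat1 and Azin1 ran the other way. Srm was 1819 ± 212 in liver and 776 ± 97.0 in tibialis (difference 1.18, SE 0.13; limma adjusted p = 1.94e-05). Sat1 was 2254 ± 318 in liver and 763 ± 175 in tibialis (difference 1.52, SE 0.18; limma adjusted p = 2.28e-05). The brightest Azin1 probe set was 2466 ± 187 in liver and 1399 ± 205 in tibialis (difference 0.81, SE 0.13; limma adjusted p = 0.000333). The second Azin1 probe set gave 0.50 (SE 0.25; limma adjusted p = 0.106). Oaz1 differed by −0.49 (SE 0.11; limma adjusted p = 0.00274) by its brightest probe set and −0.05 (SE 0.13; limma adjusted p = 0.756) by the one shared with Oaz1-ps. The brightest Oaz1 probe set no longer passed when arrays were scaled to a common median (−0.30), a scaling that moved the median of all probe sets in this contrast by 0.18.

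Between the wild-type muscles at 3 months, 6 of 15 polyamine probe sets passed (5 higher and 1 lower in gastrocnemius), against 27% of all (12.2% higher and 14.8% lower). The groups did not overlap for 6 of 15, against 24.8% of all. Odc1 was higher in gastrocnemius by all 3 probe sets, at 12346 ± 1117 in gastrocnemius (SD, n = 5) and 4210 ± 894 in tibialis (SD, n = 4) for the brightest (difference 1.56, SE 0.16; limma adjusted p = 0.000295). The other Odc1 probe sets gave smaller differences of 0.57 (SE 0.13; limma adjusted p = 0.00988) and 0.43 (SE 0.14; limma adjusted p = 0.0491). The probe sets thus disagreed on the size, and the dimmest passed in only 2 of 9 fits with 1 array left out, those without gastrocnemius replicate 2 or tibialis replicate 1. Scaling to a common median moved the median of all probe sets by −0.14, and then the dimmest Odc1 probe set (0.28) and Srm (0.33) did not pass. Srm was higher by 0.47 (SE 0.12; limma adjusted p = 0.0166) and Sat1 by 0.82 (SE 0.16; limma adjusted p = 0.00466), and the brightest Sms probe set fell by 0.50 (SE 0.12; limma adjusted p = 0.0117). Without the 3 gastrocnemius arrays richest in liver transcripts, 2 of 15 passed, the brightest and second Odc1 probe sets, while Srm was at 0.51 and Sat1 at 0.75. Between wild-type gastrocnemius at 8 and at 3 months, 0 of 15 passed in limma, against 6.19% of all (3.6% higher and 2.59% lower), and 0 of 15 had an unadjusted p under 0.05, against 22.3% of all. The groups overlapped for all 15, where 8.41% of all did not overlap, and the differences ran from −0.33 to 0.28.

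**Figure D4:**
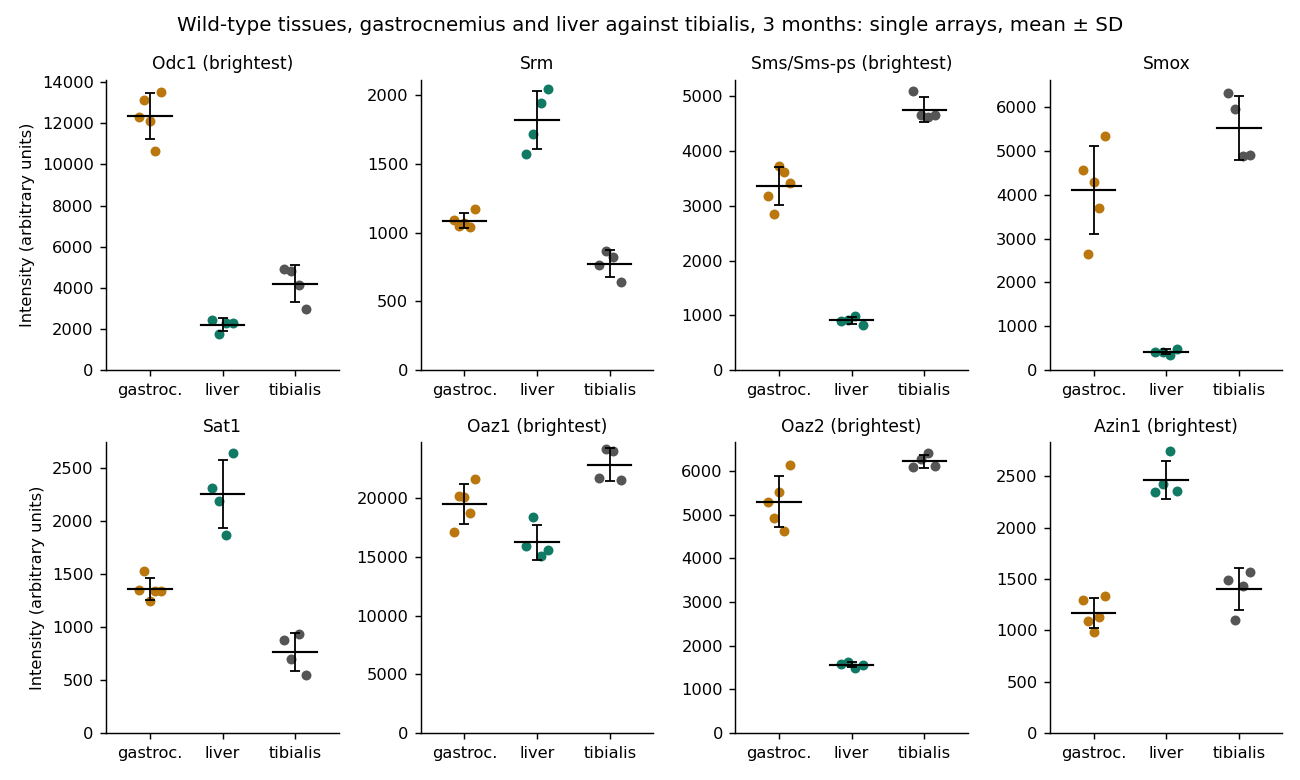
Intensity (arbitrary units, linear axes from 0) of 1 probe set of each of the 8 genes in wild-type gastrocnemius (n = 5), liver (n = 4) and tibialis (n = 4) at 3 months. Points are arrays and lines are mean ± SD. Smox, Sms and Oaz2 are low in liver, Srm, Sat1 and Azin1 are highest there, and Odc1 is highest in gastrocnemius.

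Each gene had its own order over the 8 groups. Smox was highest in wild-type tibialis (5520.2 ± 727), followed by 4 overlapping muscle groups with means of 4105 to 4794, then GSL30 gastrocnemius (2833 ± 402) and, far below, wild-type liver (418 ± 56.8) and knockout liver (327 ± 47.6). Srm was highest in knockout liver (1974 ± 319) and wild-type liver (1819 ± 212), then in GSL30 (1483 ± 111) and knockout gastrocnemius (1333 ± 56.7), and lowest in knockout tibialis (921 ± 66.1) and wild-type tibialis (776 ± 97.0). The neighbours in each of these pairs overlapped, and both wild-type gastrocnemius groups (1181 ± 67.8 at 8 months and 1086 ± 53.6 at 3 months) lay between knockout gastrocnemius and tibialis. Oaz2 was highest in GSL30 gastrocnemius (6937 ± 406), overlapped there by wild-type tibialis (6219 ± 148), and lowest in both liver groups (1625 ± 61.3 in knockout and 1564 ± 64.1 in wild type). Oaz1 varied least, with means of 16233 to 22859 over the 8 groups by its brightest probe set.

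Beyond these genes, a wider list of polyamine and methionine genes was counted. It holds 33 entries, of which 24 had a probe set, and covers arginine and ornithine supply, S-adenosylmethionine and methylthioadenosine turnover, hypusine formation and polyamine transport. None of its genes passed in knockout tibialis (17 genes tested), knockout gastrocnemius (21) or knockout liver (19) in limma. In GSL30 gastrocnemius 3 of 17 genes tested passed, all higher. By probe sets these were 3 of 28 tested, where 2.11% of all probe sets passed as higher. With the hepatocyte marker score as a covariate no probe set passed, these 3 genes included. That score did not overlap between the GSL30 and wild-type arrays, so the covariate fit cannot tell liver transcripts from genotype. Ahcy, which breaks down S-adenosylhomocysteine, was 3104 ± 375 in GSL30 and 1965 ± 219 in wild type (difference 0.65, SE 0.12). Mri1, of the pathway that returns methylthioadenosine to methionine, was 1244 ± 122 in GSL30 and 740.2 ± 87.2 in wild type (difference 0.71, SE 0.12). Gamt, the methyltransferase of creatine synthesis, was 1202 ± 189 in GSL30 and 673 ± 147 in wild type (difference 0.81, SE 0.16). Over the list the median difference in GSL30 was 0.13, where that of all probe sets tested was 0.03. Of 5 signals known to act upstream of Odc1 or of muscle growth, 3 had a probe set (Myc, Max and Igf1) and none passed where tested in a mutant group.

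The genes whose arrays tracked the brightest Odc1 probe set most closely were found over the 26 muscle arrays, after the wild-type mean of each comparison was subtracted, among 11491 probe sets. The correlation is across arrays that fall into knockout, GSL30 and wild-type groups, so it mostly orders genes by how they differed between groups, and it is a description. The other Odc1 probe sets had r of 0.95 and 0.93. The 6 most alike were Cyp27a1, a sterol hydroxylase (r = 0.88), the targeted gene Gys1 (0.84), Enox2, a cell-surface oxidase (0.83), Ddit4l, an inhibitor of mTOR signalling (0.81), the uncharacterised 1700001O22Rik (0.81) and Psmd8, a proteasome subunit (0.81). Cyp27a1 differed by −0.76 (SE 0.11) in knockout tibialis, −1.35 (SE 0.24) in knockout gastrocnemius and 0.35 (SE 0.12) in GSL30. Ddit4l differed by −1.09 (SE 0.12), −1.37 (SE 0.18) and 0.53 (SE 0.15) in the same order. Cyp27a1 was also high in wild-type liver, at a mean of 16483, against 6925 in wild-type gastrocnemius at 3 months and 3974 in wild-type tibialis. The part of liver transcripts in its gastrocnemius differences was not tested. In the knockout muscles all 6 were lower by their means, as Odc1 was. In GSL30 both Cyp27a1 and Ddit4l were higher by their means, where the Odc1 groups overlapped. The 3 most opposed were Smc6 of the SMC5/6 complex (r = −0.84), Tecr, of very-long-chain fatty acid synthesis (−0.84), and Pgap4, of glycolipid anchor synthesis (−0.83). Pgap4 differed by 0.74 (SE 0.09) in knockout tibialis, 0.98 (SE 0.21) in knockout gastrocnemius and −0.45 (SE 0.11) in GSL30.

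**Figure D5:**
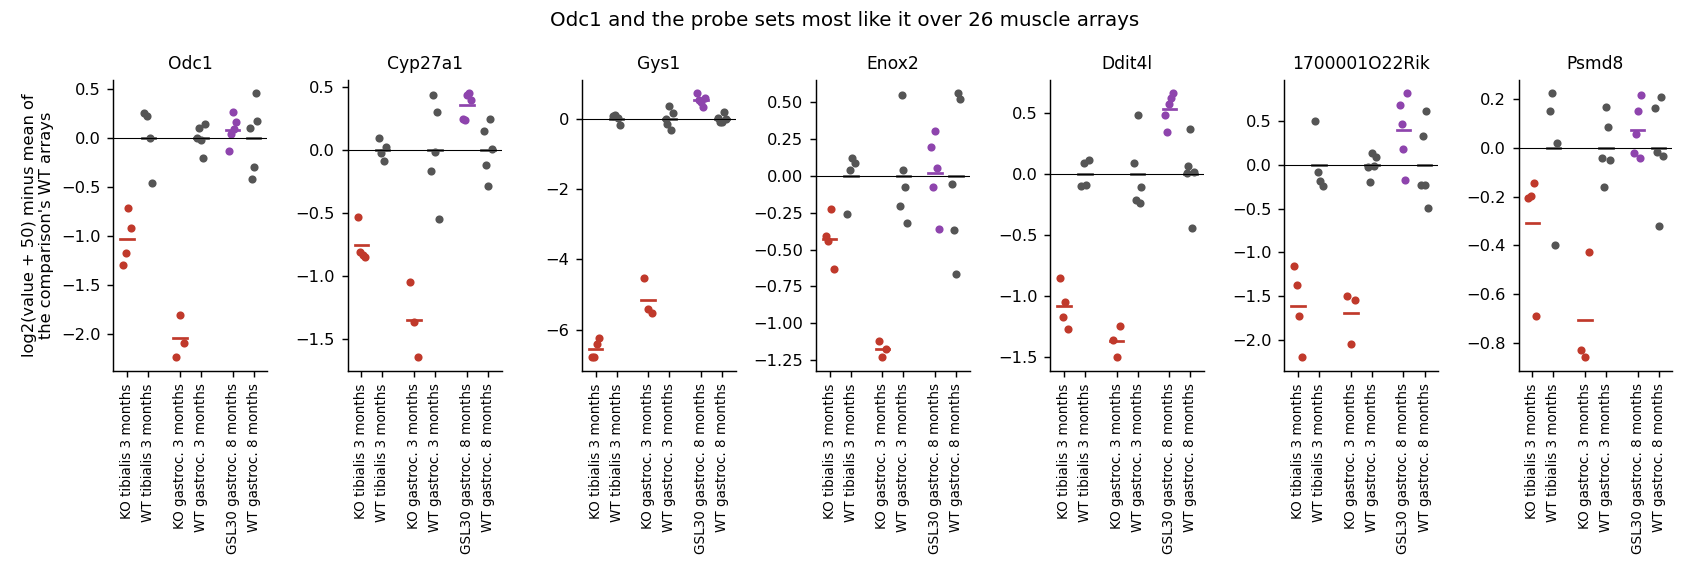
Log2(value + 50) minus the wild-type mean of the same comparison for the brightest Odc1 probe set and the 6 probe sets most correlated with it, in the 26 muscle arrays. Points are arrays and lines are group means, and the vertical scale differs between panels. Knockout arrays lie below 0 in every panel, and Gys1 shows the widest distance.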

How the data were processed

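Gene expression was measured on 34 Affymetrix arrays. Total RNA was extracted with TRIzol and RNeasy and labelled by the manufacturer's standard procedure from about 5 µg (muscle) or 10 µg (liver), per the labels. The deposited values are intensities on a linear scale, 1 per probe set; the authors' summarising software was not given in the sources used here. Without the lowest and highest 2% of probe sets each array averaged close to 1000 by the values, so arrays had already been scaled. No value was below 0.

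From the deposited intensities, log2(value + 50) was taken without further normalization. The arrays of a comparison were fitted together, using lmFit and eBayes of limma 3.58.1 (R 4.3.3). First, 64 control probe sets and those whose mean log2 value fell under the 40th percentile were left out. P-values were adjusted by Benjamini-Hochberg over the remaining 13576. Differences between effects were contrasts of a joint fit. The number of arrays limits the precision. The steps were tested on simulated data. Symbols came from the supplied annotation, which lists 1 symbol for 20393 probe sets, several for 691 and none for 1606.

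The genes and lists were chosen with earlier results of these data known. Every probe set of the chosen genes was reported in the text or a figure, at least as a range or a difference. Values by array were given in the text or a figure for those that passed in a mutant group. Genes of the wider list were named where they passed in a mutant group against its wild type or between wild-type ages. Those that passed in the other contrasts were not listed. The 6 most alike and 3 most opposed to Odc1 by Pearson correlation were named. Alternatives were a pseudocount of 1 or of 200, a common median, quantile normalization, a dim filter at the 60th percentile or none, 1 fit of all 34 arrays, trended and robust eBayes, each array left out, a hepatocyte marker score as covariate, and arrays richest in liver transcripts left out.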

Additional observations from a re-analysis of the deposited data

Results flagged for a closer look

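In 7 of 105 groups of 4 or 5 arrays, 1 array stood apart from the others of its group by Dixon's test, which chance does in about 1 group in 20. For Odc1 the third probe set read 191.1 in knockout liver replicate 1, where the other knockout livers read 1040.9 to 1088.8. For Oaz2 the second probe set read 1071.7 in wild-type gastrocnemius replicate 5 at 8 months, where the others read 4335.3 to 4934.3. For Sms the second probe set read 2265.7 in wild-type tibialis replicate 3 (the others 2939.9 to 2985.4), and the brightest read 5091.7 in wild-type tibialis replicate 1 (the others 4618.9 to 4666) and 3329.5 in wild-type gastrocnemius replicate 1 at 8 months (the others 3687.3 to 3819.2). Smox read 398.2 in knockout liver replicate 3 (the others 297.2 to 310.6). The Oaz1 probe set shared with Oaz1-ps read 23582.7 in wild-type tibialis replicate 2 (the others 17477.2 to 18184.4).

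Differences between effects passed the threshold for 6 results. The GSL30 difference exceeded the knockout difference in gastrocnemius by 2.12, 1.52 and 1.65 for the 3 Odc1 probe sets and by 0.76 for the second Sms probe set. The knockout difference in liver exceeded the mean of both muscles by 1.42 and 1.24 for the brightest and second Odc1 probe sets.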

How the results depend on the processing

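No result changed sign where it was called. In knockout tibialis 1 of 15 probe sets passed with no dim filter (Odc1 brightest −1.03, no longer past the threshold), where 96 of all probe sets passed in place of 190. With single arrays left out the count was 1 to 2 and the Odc1 difference −1.18 to −0.94. In knockout gastrocnemius the count was 1 without the arrays richest in liver transcripts (4 of all passed in place of 20) and 3 with any single array left out, where Odc1 ran from −2.16 to −1.95. In GSL30 the count was 1 with quantile normalization, a common median or a pseudocount of 1, and 4 with all 34 arrays in 1 fit. It was 0 with no dim filter, with the hepatocyte score as covariate and without the arrays richest in liver transcripts, and 0 to 1 with single arrays left out. All probe sets passing in GSL30 numbered 585, against 382 with a common median, 1093 with all 34 arrays, 259 with no dim filter, 153 without the liver-rich arrays and 0 with the covariate. Odc1 in GSL30 was −0.20 with that covariate and −0.03 to 0.19 with single arrays left out. In knockout liver the count was 0 in every fit run and Odc1 ran from −0.22 to −0.02 with single arrays left out.

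Between wild-type gastrocnemius and tibialis the count was 2 without the liver-rich arrays (1691 of all in place of 3669) and 5 to 6 with single arrays left out. With single arrays left out it was 13 to 14 between wild-type liver and tibialis and 0 to 0 between ages. For GSL30 minus knockout it was 2 without the liver-rich arrays (55 of all in place of 312) and 3 to 4 with single arrays left out. For liver minus muscles it was likewise 2 to 3, and for gastrocnemius minus tibialis knockout effects 0 to 0. A lost call without the liver-rich arrays comes with fewer arrays in the fit. In GSL30 the hepatocyte score did not overlap between the groups, so the covariate fit cannot tell liver transcripts from genotype. For the other changes the cause was not tested. A common median moved the median of all probe sets by −0.14 (wild-type gastrocnemius minus tibialis), 0.18 (wild-type liver minus tibialis), 0.15 (gastrocnemius minus tibialis effects) and −0.11 (GSL30 minus knockout), and quantile normalization moved it by 0.11 in wild-type liver minus tibialis. No paired analysis was possible because the labels give no number shared by mutant and wild-type arrays. Dim signal limits the third Sms probe set in liver.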

Other observations

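Genes of arginine and methionine metabolism on the wider list differed between the wild-type gastrocnemius groups. Of 32 probe sets of the list tested, 1 passed as higher and 5 as lower at 8 months, against 3.6% and 2.59% of all probe sets. Arg1, liver arginase, averaged 103 ± 145 in wild-type gastrocnemius at 8 months and 10272 ± 8723 at 3 months (SD, n = 5 each; difference −5.71, SE 0.88), where wild-type liver averaged 43427 ± 4155 and wild-type tibialis 9.55 ± 3.94. Mat1a, the liver form of methionine adenosyltransferase, averaged 297 ± 128 at 8 months and 12895 ± 10809 at 3 months (difference −4.62, SE 0.69). Oat, ornithine aminotransferase, averaged 5962 ± 871 at 8 months and 10732 ± 2643 at 3 months (difference −0.82, SE 0.18). Asl (difference −3.53, SE 0.74) and Ahcy (difference −2.31, SE 0.55) also passed as lower at 8 months. Hepatocyte markers, as a percent of wild-type liver, were 2.6 to 6.17 in the same wild-type gastrocnemius arrays at 8 months and 9.6 to 129 at 3 months. Atp13a2, a lysosomal polyamine exporter, ran the other way, at 1694 ± 212 at 8 months and 1175 ± 101 at 3 months (difference 0.51, SE 0.12).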
